A study of Mus musculus with 36 samples.

Results

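The prostaglandin synthesis and receptor genes described here were Ptgs1, Ptgs2, Ptges, Ptgis, Ptgfr, Ptger2, Ptger4 and Hpgd, 8 of the 39017 genes of the count table, taken by their symbols. They were followed in RNA-seq libraries of mouse pancreatic fibroblasts of the C57BL/6 strain, grown alone (mono-culture, called PSC in the sample titles) or together with a GFP-carrying tumour line, in direct co-culture of 48 h. The lines were the sub-clones E, H, K, M, N, T and V and KPC1, a name that the labels do not explain. Each of the 9 groups had 4 libraries, 36 in all, with totals of 12532122 to 21985538 counts. Co-cultured fibroblasts were separated from tumour cells by flow sorting on GFP, so that each co-culture library holds the cells that this sort called fibroblasts, and the labels name no other agent or genotype that differed between groups. Whether the mono-culture fibroblasts were sorted too is not stated here, and the part of such handling in the differences was not tested. The labels do not say that the 4 libraries of a group came from separate cultures, so the p-values measure the spread between these libraries, which may be technical.

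Prostaglandins are short-lived lipid signals made from arachidonic acid. The cyclooxygenases Ptgs1, usually constitutive, and Ptgs2, which is inducible, turn arachidonic acid into prostaglandin H2. Terminal synthases convert it further, Ptges to prostaglandin E2 and Ptgis to prostacyclin. Ptger2 and Ptger4 are receptors for prostaglandin E2 that raise cyclic AMP, Ptgfr is the receptor for prostaglandin F2alpha, and Hpgd starts the breakdown of prostaglandins after their uptake into the cell. In tumours, cyclooxygenase activity and prostaglandin E2 are known for their part in inflammation and in the exchange between tumour cells and stroma.

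In these fibroblasts Ptgs2 was higher in all 8 co-cultures than in mono-culture, from 2.06-fold with clone K to 10.8-fold with clone V. Ptges, Ptger4 and Ptgis also rose, in 5, 6 and 6 of the 8 co-cultures, and Ptgs1 in 2. The co-cultures with the most Ptgs2, those with clones V and H, had Ptges at 1.14-fold and 1.25-fold of the mono-culture, which did not pass the test. Hpgd had 0 counts in the 36 libraries, and Ptgfr and Ptger2 reached no more than 9 and 5 counts.

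The starts of Ptgs2 and Ptges are shown because Ptgs2 was highest with clones V and H, the co-cultures in which Ptges was lowest. In the coordinates of GRCm38 (mm10) and GENCODE vM21, Ptgs2 lies on the forward strand of chromosome 1 from 150100031 to 150108227, and Ptges on the reverse strand of chromosome 2 from 30889471 to 30929863. The windows are the 250 bases before the start that RefSeq annotates, chr1:150099781-150100030 on the forward strand for Ptgs2 and chr2:30903298-30903547 on the reverse strand for Ptges, both outside the transcript from that start. The Ptges window lies inside the span that GENCODE gives the gene, downstream of the GENCODE start at 30929863. They are written 5′ to 3′ in lower case, and capitals mark GGGCGG (the core of a GC box) and TTGCGCAA (a palindrome of the kind that C/EBP factors can bind) on either strand.
Ptgs2: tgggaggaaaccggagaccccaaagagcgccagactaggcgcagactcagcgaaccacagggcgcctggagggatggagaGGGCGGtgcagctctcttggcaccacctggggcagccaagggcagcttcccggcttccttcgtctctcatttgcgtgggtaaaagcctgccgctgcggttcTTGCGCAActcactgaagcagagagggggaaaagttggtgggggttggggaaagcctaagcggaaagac
Ptges: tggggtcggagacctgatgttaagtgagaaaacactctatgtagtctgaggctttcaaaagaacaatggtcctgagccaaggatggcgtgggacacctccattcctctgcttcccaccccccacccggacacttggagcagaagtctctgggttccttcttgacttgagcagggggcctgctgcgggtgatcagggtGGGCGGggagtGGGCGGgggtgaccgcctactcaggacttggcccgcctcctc
The Ptgs2 window had a GC content of 61.6% and the Ptges window 59.6%, against a median of 52.4% over 32851 promoters. GGGCGG was in 5 of the 7 members with a promoter in the table, the exceptions being Ptgs1 and Ptger2, and in 32.7% of all promoters. TTGCGCAA, which was looked for only after the letters had been read, was in the Ptgs2 window alone among the 7, with its first letter 69 bases before the start, and in 0.164% of all promoters. TTNNGNAAT was in the windows of Ptgfr and Ptger2 and in 10.2% of all. The other motifs searched on both strands were in none of the 7 windows. Of all promoters 12.4% held TATAAA, the TATA box, and 1.55% held TGACGTCA, the cyclic AMP response element. The E-box CACGTG was in 6.02%, the AP-1 motif TGANTCA in 6.75%, the NF-kB motif GGGNNTTCC in 4.98% and the Egr motif GCGNGGGCG in 4.70%. These are matches of letters in one window and no more than that.

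Of the 8 genes, Ptgs1, Ptgs2, Ptges, Ptgis and Ptger4 passed the filter on low counts, each with at least 147 counts in every library, and entered the edgeR quasi-likelihood fit over 14439 genes. Levels are given as CPM, the usual depth-scaled count per library, after TMM normalization (a scaling that centres most genes between libraries), and changes as log2 fold changes with Benjamini-Hochberg adjusted p-values from that fit. Per length, in RPKM, the mono-culture levels were 32.7 ± 1.81 for Ptgis, 31.8 ± 2.05 for Ptgs1, 5.95 ± 1.80 for Ptgs2, 4.31 ± 0.573 for Ptges and 3.25 ± 0.462 for Ptger4 (SD, n = 4). Ptgis and Ptgs1 were thus several times more abundant than the other 3 genes in fibroblasts grown alone.

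Fibroblast identity was checked with 10 markers, each above 3 counts in at least 1 library of every group, with summed levels of 10902 to 32116 CPM in a library. In the mean of the clones 3 of the 10 were higher (Fap, Pdgfrb and Thy1) and 2 lower (Pdgfra and Lum). By co-culture, 5 were lower with clones H and V, 6 with clone T and KPC1 and 0 with clones E, K, M and N. The share of all genes lower was 26.4% with clone H, 28.9% with clone V, 24.7% with clone T and 28.5% with KPC1. Other markers rose in these same co-cultures. Fap was at 22.4-fold of the mono-culture with clone H, 18.3-fold with clone V, 45.5-fold with clone T and 52.2-fold with KPC1. Thy1 also passed upwards in each of them, Pdgfrb in all but that of clone V, and Vim in those of clone T and KPC1. Fap rose with clones E (51.2-fold), K (22.4-fold), M (64.2-fold) and N (46.5-fold) too, as did Pdgfrb. Pdgfra, a growth factor receptor, had 312 ± 34.1 CPM in mono-culture and 97.1 ± 42.4 with clone V, 124 ± 15.3 with clone H, 107 ± 2.84 with KPC1 and 149 ± 14.4 with clone T (SD, n = 4). Dcn, a matrix proteoglycan, went from 317 ± 136 CPM to 137 ± 62.2, 116 ± 41.9, 69.2 ± 34.6 and 98.6 ± 44.8 in the same order, and Lum, another one, from 6.35 ± 2.97 CPM to 0.324 ± 0.215 with KPC1, where 1 library had 2 counts. Of 12 epithelial markers, 8 were tested and 7 were higher in the mean of the clonal co-cultures, and their summed level was 2.81 to 4.29 CPM in mono-culture and 22.2 to 865 CPM in co-culture libraries. The keratins Krt8, Krt18 and Krt19 made up most of the sum in co-culture, Cldn4 was at 0 counts in 8 of the 9 groups, and Epcam in 4. Leukocyte and endothelial markers summed to no more than 16.3 and 6.69 CPM in any library, with Cd3e at 0 counts in every group. In bulk libraries fewer cells of a type and less RNA per cell cannot be told apart.

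Ptgs2, the inducible cyclooxygenase, had 17.4, 28.1, 35.1 and 21.1 CPM in the mono-culture libraries. With clone V the 4 libraries held 206, 321, 336 and 229 CPM, and with clone H 206, 274, 349 and 101 CPM. All 8 libraries lay above the highest mono-culture library, although those of clone H spread over 3.46-fold among themselves. With KPC1 the values were 279, 161, 165 and 113 CPM. In the co-cultures with clones N and T they were 60.04, 99.1, 177 and 131 CPM and 74.9, 147, 108 and 65.8 CPM. These 3 groups also lay wholly above the mono-culture and overlapped one another. Clone E gave 79.3, 67.0, 98.3 and 78.7 CPM and clone K 58.6, 55.4, 56.5 and 38.7 CPM. Clone M gave 44.2, 34.9, 79.4 and 59.2 CPM, the only co-culture with a library inside the range of the mono-culture.

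**Figure D1:**
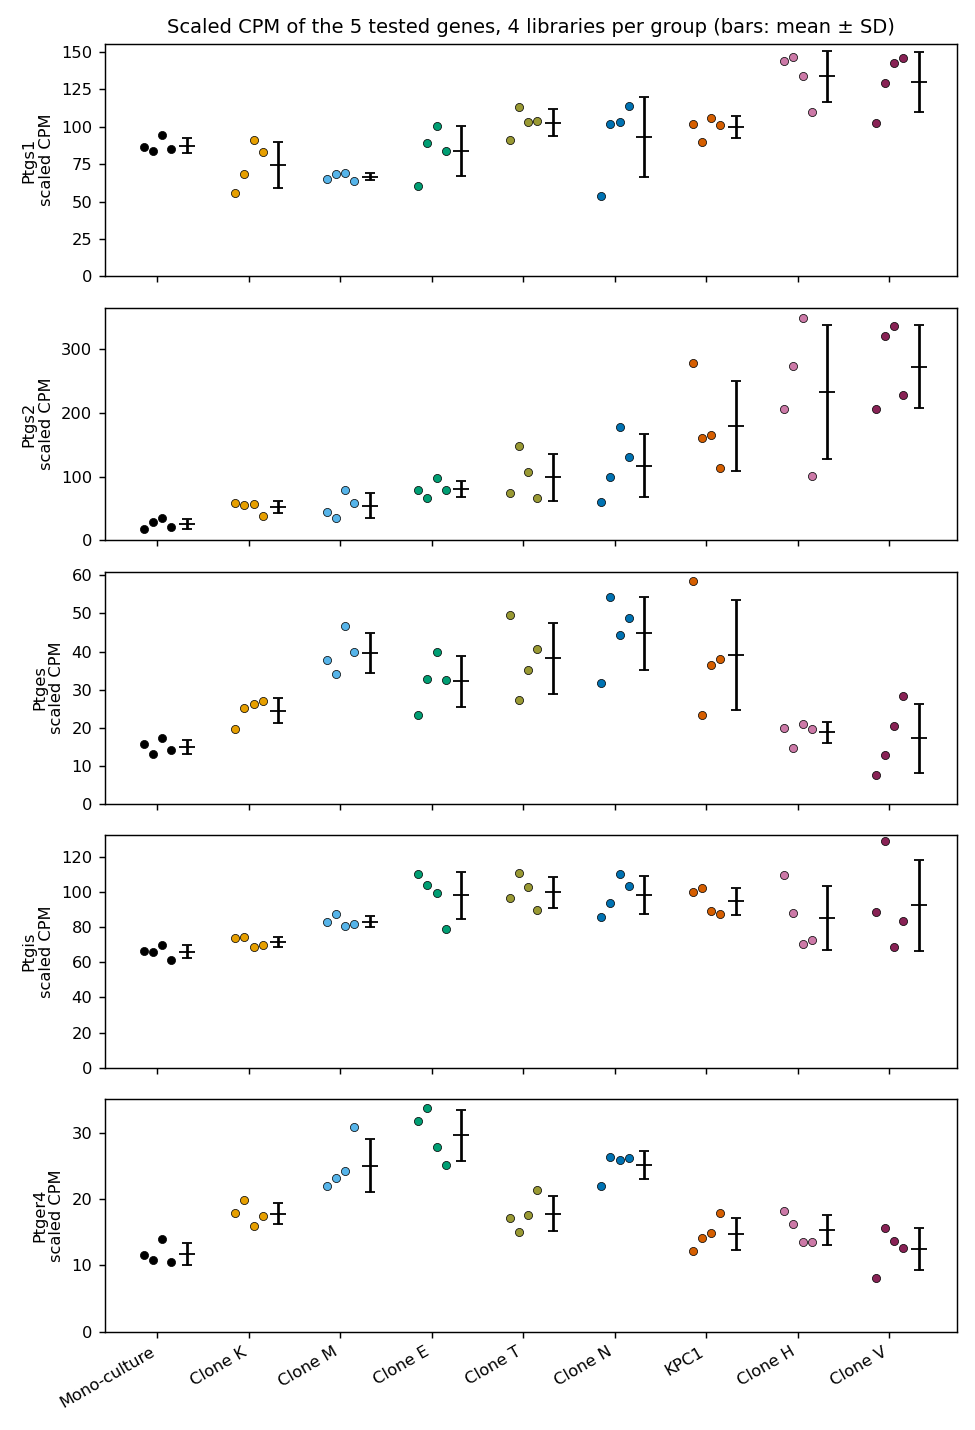
Scaled CPM (vertical axes, from 0) of Ptgs1, Ptgs2, Ptges, Ptgis and Ptger4 in the 4 libraries of each of the 9 groups (horizontal axis); points are libraries, and bars beside them the mean ± SD. Ptgs2 goes from a mean of 25.4 CPM in mono-culture to 273 CPM with clone V, while Ptges with clone V, at 17.2 CPM, stays near the 15.04 CPM of the mono-culture.

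The log2 fold change of Ptgs2 against mono-culture was 3.43 ± 0.37 (SE) for clone V (adjusted p = 7.8e-09), 3.20 ± 0.37 for clone H (3.6e-08) and 2.83 ± 0.36 for KPC1 (1.5e-07). For clone N it was 2.20 ± 0.36 (adjusted p = 1.2e-05), for clone T 1.97 ± 0.35 (3.5e-05) and for clone E 1.67 ± 0.35 (0.00051). Clones M and K had the smallest changes, 1.11 ± 0.35 (0.021) and 1.05 ± 0.35 (0.033). The last 2 calls were lost when single libraries were left out, with adjusted p-values up to 0.11 for each: for clone K without replicate 1, 2 or 3 of that clone or 1, 2 or 4 of the mono-culture, and for clone M without its replicate 3 or replicate 1 or 4 of the mono-culture. Ptgs2 in clone K was also not called when no filter on low counts was used (adjusted p = 0.07). In 4 of the 8 co-cultures the library with the highest Ptgs2 also had the highest summed epithelial markers. Clone M was among them, at 567 CPM in replicate 3.

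Ordered by mean CPM, Ptgs2 went from 25.4 in mono-culture through clones K (52.3), M (54.4), E (80.8), T (98.9) and N (117), KPC1 (179.5) and clone H (233) to clone V (273). Clones V and H and KPC1, at the top of this order, are also co-cultures with lower Pdgfra, Dcn and Lum, as is clone T, which is in the middle of it, and the part of such differences in the Ptgs2 level was not tested. In the order only the step from mono-culture to clone K passed the test between neighbours. Clones V and H were each higher than clones E, K, M, N and T, with log2 differences of 1.23 to 2.39 for V and of 0.99 to 2.15 for H and adjusted p-values of 0.024 or less. Neither differed from the other or from KPC1 by the test, with a difference of V over H of 0.23 ± 0.33 on the log2 scale (adjusted p = 0.82). Over the 28 pairs of co-cultures Ptgs2 differed in 17 pairs, where 27.5% of all gene and pair combinations passed.

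Ptgs1, the constitutive cyclooxygenase (chromosome 2, 36230426 to 36252272, forward strand), stayed within a narrower range. The 4 mono-culture libraries had 83.5 to 94.3 CPM, against 109.7 to 147 CPM with clone H and 102 to 146 CPM with clone V, where no library overlapped the mono-culture. Its log2 fold change was 0.61 ± 0.16 for clone H (adjusted p = 0.0021) and 0.57 ± 0.16 for clone V (0.0033). Clone M, at 63.9 to 68.9 CPM, lay wholly below the mono-culture, but its log2 fold change of -0.39 ± 0.16 did not pass the test (adjusted p = 0.084). It passed with the replicate number as a block (0.036), in a fit of the 8 libraries of these groups alone (0.00097) and without replicate 1 of clone N (0.023). In the other 5 co-cultures the log2 fold change lay between -0.23 and 0.23 and did not pass, except for clone T when fitted with the mono-culture alone (0.24, adjusted p = 0.026). Neighbours in the order of means, from clone M at 66.6 CPM to clone H at 134 CPM, did not differ by the test. Of the 28 pairs 13 did, where 27.5% of all gene and pair combinations passed.

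As a share of the summed RPKM of both cyclooxygenases, Ptgs2 was 15.6% ± 3.62 in mono-culture (SD, n = 4), with libraries at 11.5% to 19.3%. The share was 31.6% ± 7.42 with clone K, 33.8% ± 7.81 with clone M, 37.4% ± 7.18 with clone T, 38.7% ± 5.42 with clone E and 43.8% ± 6.02 with clone N. Clone H reached 50.6% ± 10.8, KPC1 52.3% ± 9.11 and clone V 57.2% ± 5.04, so that in these 3 groups the mean share of the inducible form was the larger. Only with clone V did this hold in each library, at 50.3% to 61.5%. Libraries ranged from 37.2% to 62.6% with clone H and from 41.8% to 63.8% with KPC1. Every co-culture library was above the mono-culture range, the lowest being 23.1% with clone K. The summed RPKM itself was 37.8 ± 3.30 in mono-culture, 37.9 ± 4.28 with clone K and 36.5 ± 4.95 with clone M, and 104 ± 18.5 with clone V.

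Ptges, the inducible terminal synthase that makes prostaglandin E2, had 15.7, 13.04, 17.2 and 14.2 CPM in mono-culture. With clone N its libraries held 31.7, 54.3, 44.5 and 48.8 CPM, with clone M 37.8, 34.2, 46.7 and 39.99 CPM. All of these lay above the mono-culture. With KPC1 the values were 58.4, 23.5, 36.4 and 37.9 CPM, with clone T 49.5, 27.4, 35.2 and 40.7 CPM and with clone E 23.4, 32.9, 39.9 and 32.5 CPM. They too cleared the mono-culture range, with replicate 1 of KPC1 the highest of the 36 libraries. Clone K gave 19.6, 25.2, 26.3 and 27.04 CPM, clone H 19.9, 14.6, 21.1 and 19.6 CPM and clone V 7.48, 12.8, 20.4 and 28.2 CPM. Clones H and V overlapped the mono-culture, and clone V spread over 3.78-fold.

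The log2 fold change of Ptges was 1.58 ± 0.27 for clone N (adjusted p = 3.0e-05), 1.40 ± 0.27 for clone M (0.00029), 1.38 ± 0.27 for KPC1 (7.1e-05), 1.35 ± 0.27 for clone T (0.00014) and 1.10 ± 0.27 for clone E (0.0024). It was 0.71 ± 0.27 for clone K (0.066), 0.32 ± 0.27 for clone H (0.33) and 0.19 ± 0.27 for clone V (0.56). The clone K value passed under DESeq2 (0.041), in a fit of the 8 libraries of both groups alone (0.0019) and without replicate 1 or 4 of clone V (0.03 and 0.041). Between co-cultures, clones H and V were each lower than clones E, M, N and T and KPC1, by 0.78 to 1.25 for H and 0.90 to 1.38 for V on the log2 scale, with adjusted p-values of 0.026 or less. Clone K was lower than clone N and KPC1, which made 12 of 28 pairs, where 27.5% of all gene and pair combinations passed. No neighbours in the order of means differed by the test.

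**Figure D2:**
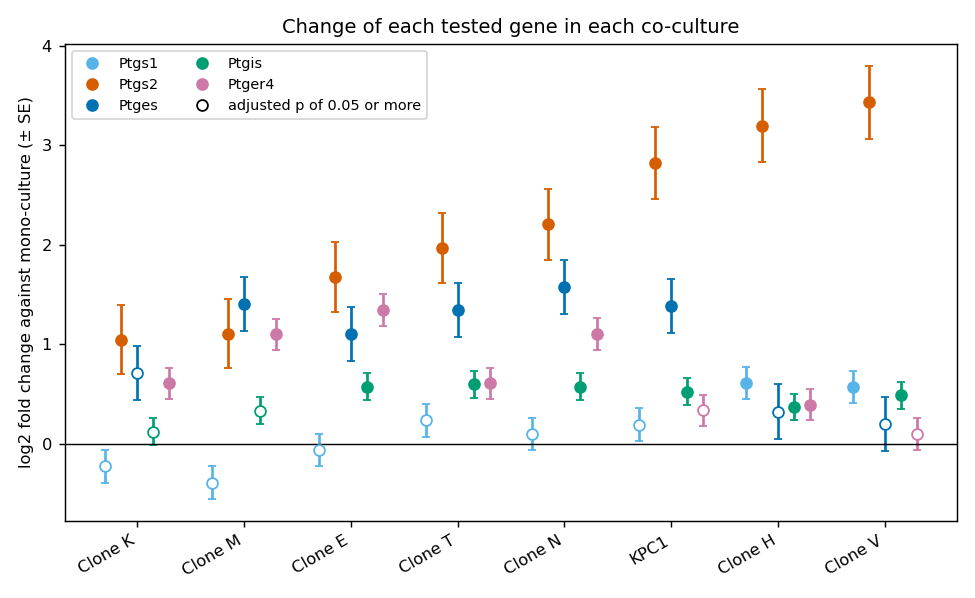
Log2 fold change against mono-culture (vertical axis, bars are the SE) of the 5 tested genes in each co-culture (horizontal axis); filled points passed an adjusted p of 0.05 and open points did not. Ptgs2 climbs from 1.05 with clone K to 3.43 with clone V, whereas Ptges is at 0.32 and 0.19 with clones H and V.

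Per length, Ptgs2 and Ptges were close to each other in mono-culture, with a ratio of RPKM of 1.39 ± 0.401 (SD, n = 4). Clone M had a ratio of 1.10 ± 0.251, clone K 1.79 ± 0.521, clone E 2.11 ± 0.470, clone N 2.13 ± 0.824 and clone T 2.37 ± 1.48. KPC1 had 3.92 ± 1.31, clone H 10.4 ± 5.05 and clone V 15.8 ± 7.25. Each library of clones H and V, at 4.23 or more, exceeded the highest mono-culture ratio of 1.76, as did each of KPC1, at 2.44 or more.

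**Figure D3:**
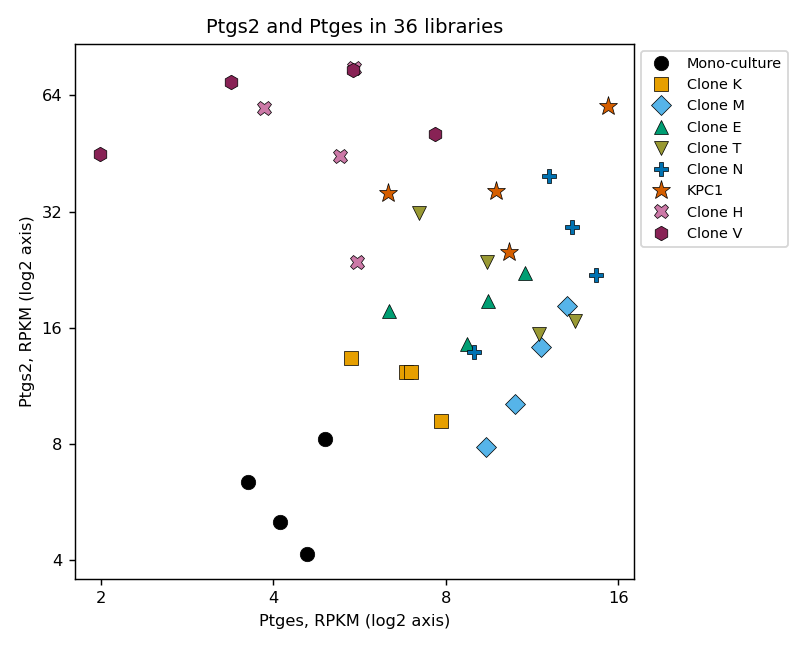
RPKM of Ptges (horizontal, log2 axis) and of Ptgs2 (vertical, log2 axis) in the 36 libraries, 1 point each, with the 9 groups by colour and shape. Libraries of clones H and V sit at the upper left, with Ptgs2 at 23.7 to 75.2 and Ptges at 2.00 to 7.65, and those of clone M lower and to the right.

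Ptges also moved with the epithelial markers from library to library. In each of the 8 co-cultures the library with the highest summed epithelial markers was the one with the highest Ptges, and in 5 of 8 the lowest was shared as well. With clone V the sums of 40.5, 35.4, 137 and 236 CPM stood beside 7.48, 12.8, 20.4 and 28.2 CPM of Ptges, and with clone T sums of 865, 310.3, 430.4 and 551 CPM beside 49.5, 27.4, 35.2 and 40.7 CPM. For Ptgs2 the highest library was shared in 4 co-cultures, for Ptgs1 in 3, for Ptger4 in 1 and for Ptgis in 0.

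This pattern was looked for after the values had been seen. In every co-culture but that of clone N, replicate 2 had the lowest sum. An edgeR fit with the log2 of the summed markers as a covariate within co-cultures gave Ptges a slope of 0.25 ± 0.06 on the log2 scale per doubling of the sum (adjusted p = 0.0026), where 7.33% of genes had a higher and 4.14% a lower slope by the test. The slopes of Ptgs2 (0.06 ± 0.09, adjusted p = 0.75), Ptgs1 (0.07 ± 0.04, 0.29), Ptgis (-0.08 ± 0.03, 0.12) and Ptger4 (-0.02 ± 0.04, 0.86) did not pass. The fit had no term for the replicate number, so these slopes were not separated from differences between replicate numbers. With the covariate Ptges still differed among the 7 clones (adjusted p = 0.00084), but in 6 instead of 12 of the 28 pairs. By group, the summed markers had the lowest mean with clone V (112 CPM), followed by clones K (164) and H (178), and the highest with clones N (556) and T (539). Clones V, H and K were also the co-cultures with the lowest Ptges. Clone M did not follow this order, with a mean sum of 269 CPM, under clone E (371) and KPC1 (380). Its mean Ptges of 39.7 CPM was above that of clone E (32.2) and KPC1 (39.1). Mean Ptgs2 was highest with clone V, which had the lowest sum. Among the co-cultures it was lowest with clone K, which had the next lowest sum. KPC1, with a mean Ptgs2 of 179.5 CPM, had a sum of 380 CPM. The part of tumour-cell RNA in the levels of Ptges and Ptgs2 was not tested.

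**Figure D4:**
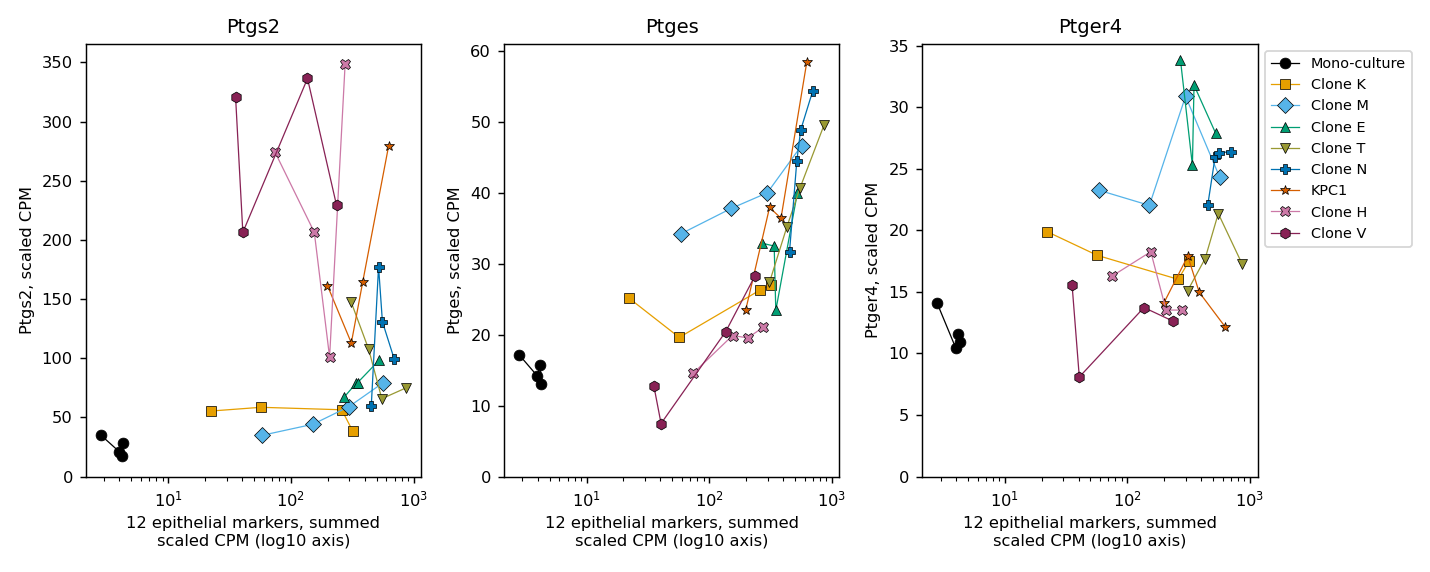
Scaled CPM of Ptgs2, Ptges and Ptger4 (vertical axes, from 0) against the summed scaled CPM of 12 epithelial markers (horizontal, log10 axis) in each library, with lines joining the 4 libraries of a group. Ptges goes up with the sum within most co-cultures, with 28.2 CPM at a sum of 236 CPM and 7.48 CPM at 40.5 CPM for clone V, while Ptgs2 reaches 321 CPM at a sum of 35.4 CPM.

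Ptgis, prostacyclin synthase (chromosome 2, 167191805 to 167240604, reverse strand), changed by less. Mono-culture libraries had 61.4 to 70.0 CPM, clone T 90.0 to 111, clone N 85.5 to 110.0, clone E 79.0 to 110.3 and KPC1 87.4 to 102 CPM, with no overlap. Clone M, at 80.6 to 87.3 CPM, and clone H, at 70.4 to 109.8 CPM, also lay above the mono-culture, whereas clone V (68.5 to 129) and clone K (68.9 to 74.3) overlapped it. The log2 fold change was 0.60 ± 0.14 for clone T (adjusted p = 0.00047), 0.57 ± 0.14 for clones E (0.0015) and N (0.0011), 0.52 ± 0.14 for KPC1 (0.0014), 0.48 ± 0.14 for clone V (0.0027) and 0.37 ± 0.13 for clone H (0.021). For clones M (0.33 ± 0.14, adjusted p = 0.073) and K (0.12 ± 0.14, 0.60) it did not pass. The call for clone H was lost without its replicate 1 (0.16), without replicate 4 of the mono-culture (0.06), without scaling (0.061) and under limma-trend on RPKM (0.078 and 0.08), and clone M passed with the replicate block (0.04), in a fit of the 8 libraries of both groups (0.0013), without replicate 1 of clone H (0.049) and without replicate 2 of clone V (0.029). The 5 of 28 pairs that differed all had clone K as the lower member, against clones E, N, T and V and KPC1. This is a smaller share than the 27.5% of all gene and pair combinations that passed.

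Ptger4, a prostaglandin E2 receptor (chromosome 15, 5206661 to 5244187, reverse strand), followed another order. Mono-culture libraries had 11.6, 10.9, 14.1 and 10.5 CPM, clone E 31.8, 33.8, 27.9 and 25.3 CPM, clone N 22.1, 26.4, 25.9 and 26.3 CPM and clone M 22.03, 23.3, 24.3 and 30.9 CPM. These 3 groups lay above all libraries of the mono-culture, of clones H, K, T and V and of KPC1. Clone T had 17.2, 15.1, 17.7 and 21.4 CPM, and clone K 17.96, 19.9, 16.02 and 17.5 CPM. Clone H had 18.3, 16.3, 13.5 and 13.5 CPM, KPC1 12.2, 14.1, 14.97 and 17.9 CPM and clone V 8.09, 15.6, 13.7 and 12.6 CPM. The last 3 groups overlapped the mono-culture.

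The log2 fold change of Ptger4 was 1.34 ± 0.16 for clone E (adjusted p = 1.3e-07), 1.10 ± 0.16 for clones N (1.5e-06) and M (3.9e-06) and 0.61 ± 0.16 for clones T (0.0017) and K (0.0055). It was 0.39 ± 0.16 for clone H (0.034), 0.34 ± 0.16 for KPC1 (0.066) and 0.10 ± 0.16 for clone V (0.63). The call for clone H was lost in 5 of 36 fits that left out 1 library, namely replicate 1 or 2 of clone H or replicate 1, 2 or 4 of the mono-culture (adjusted p up to 0.13), without scaling (0.12), with a minimum of 10 counts (0.055) and under limma-trend (0.13 and 0.12). KPC1 passed without its replicate 1 (0.038), replicate 3 of the mono-culture (0.026) or replicate 1 of clone V (0.035). Among neighbours in the order of means, the step from clone T (17.9 CPM) to clone M (25.1 CPM) passed the test (adjusted p = 0.011). Of the 28 pairs 16 differed, where 27.5% of all gene and pair combinations passed. Clones H and V, highest in Ptgs2, were each lower in Ptger4 than clones E, M and N, by 0.71 to 1.25 on the log2 scale. Ptger4 shares 82 exon bases with Ttc33 on the opposite strand and 1015 with the pseudogene Gm15937, which had 3 counts or fewer, and the sources do not say whether counting used strand. Ttc33 was lower in the mean of the clones, with a log2 fold change of -0.34 (adjusted p = 0.00017), the opposite direction to Ptger4.

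Ptger2, the other cyclic AMP-linked receptor for prostaglandin E2 among these genes (chromosome 14, 44988195 to 45003820, forward strand), had 21 counts over the 36 libraries and 0 in 26 of them, among them the 4 of mono-culture. Its highest library was replicate 2 of clone N with 5 counts (0.271 CPM). Ptgfr (chromosome 3, 151796502 to 151837630, reverse strand) had 60 counts in all, 0 in 15 libraries, and 24 of the 60 were in clone N, with 5, 5, 5 and 9 counts, against 0, 0, 2 and 0 in mono-culture. Clone N had more than 3 counts of Ptgfr in each library, which no other group had. In a fit without the filter on low counts Ptgfr passed for clone N (adjusted p = 0.019), and neither gene passed against mono-culture in another co-culture. Hpgd (chromosome 8, 56294585 to 56321043, forward strand) had 0 counts throughout, which allows up to 3 counts, or 0.131 to 0.228 CPM, in a library. Such limits cover counting error only. Ptgfr exceeded 3 counts in 7 of the 36 libraries and Ptger2 in 2, so that the 3 genes were near or below detection in most libraries, and the Ptgfr difference of clone N rests on 5 to 9 counts a library.

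Counted over the 5 tested genes, 4 were higher with clone E, where 16.5% of all genes tested were higher, 4 with clone H (27.8%), 2 with clone K (10.4%), 3 with clone M (12.2%), 4 with clone N (19.7%), 4 with clone T (25%), 3 with clone V (29.4%) and 3 with KPC1 (30.5%). In none of the 8 comparisons was a member lower, where 15.5% of all genes were lower with clone E, 26.4% with H, 8.69% with K, 10.8% with M, 19.2% with N, 24.7% with T, 28.9% with V and 28.5% with KPC1. In the mean of the 7 clones 4 were higher, against 24.3% of all genes higher and 24.9% lower, with log2 fold changes of 2.09 ± 0.31 for Ptgs2 (adjusted p = 2.0e-06), 0.95 ± 0.22 for Ptges (0.00065), 0.75 ± 0.13 for Ptger4 (1.1e-05) and 0.44 ± 0.11 for Ptgis (0.00099). Ptgs1 was at 0.12 ± 0.12 (0.46). The median log2 fold change of the 5 genes in this comparison was 0.75, and that of all genes 0.01. These 9 comparisons share the mono-culture libraries.

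Differences among the 7 clonal co-cultures passed the F-test for all 5 genes, where 67.5% of genes did so. The adjusted p-values were 1.2e-07 for Ptger4, 2.7e-07 for Ptgs2, 5.8e-06 for Ptgs1, 8.7e-05 for Ptges and 0.022 for Ptgis. The Ptgis call was lost without replicate 3 or 4 of clone K (0.053 and 0.063). KPC1, compared with the mean of the 7 clones, was higher in Ptgs2 by 0.74 ± 0.24 (adjusted p = 0.014), where 22.3% of genes were higher, and lower in Ptger4 by 0.41 on the log2 scale (SE 0.12, adjusted p = 0.0069), where 18.8% were lower. Both calls were lost without replicate 1 of KPC1 (0.22 and 0.06), the KPC1 library with the highest Ptgs2, Ptges and epithelial sum. Ptges was higher by 0.43 ± 0.19 (0.072), which passed without KPC1 replicate 2 (0.018) and without clone V replicate 4 (0.025).

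Around these genes the pathway moved in part. Arachidonate release, the step before the cyclooxygenases, had 10 tested of 15 listed genes, of which 2 were higher and 4 lower in the mean of the clones. In this comparison 24.3% of all genes were higher and 24.9% lower. Pla2g6, a calcium-independent phospholipase A2, was highest at 0.34 ± 0.09 (adjusted p = 0.0022), and Pla2g2e, a secreted phospholipase A2 at 2.06 CPM or less on average in any group, lowest at -1.75 ± 0.29 (1.1e-05). Pla2g4a, the cytosolic phospholipase A2 that frees arachidonic acid for prostaglandin synthesis, rose with clones H (0.70 ± 0.13, adjusted p = 6.0e-05) and V (0.85 ± 0.13, 2.9e-06) and KPC1 (0.73 ± 0.13, 2.4e-05), and was named after its values were seen. In the other 5 co-cultures it lay between -0.20 and 0.31 and did not pass.

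Of 10 other prostanoid synthases, 6 were tested, and 2 rose and 1 fell in the mean of the clones, near the shares of all genes (24.3% and 24.9%). Akr1b8, an aldo-keto reductase, was at 0.33 ± 0.06 (adjusted p = 2.9e-05) and Ptges3, the cytosolic prostaglandin E synthase also known as the chaperone p23, at 0.27 ± 0.09 (0.012). Akr1b3, an aldo-keto reductase with prostaglandin F synthase activity, fell by 0.48 (SE 0.09, 5.2e-05). Cbr1 (-0.06 ± 0.12), Ptges2 (-0.17 ± 0.12) and Ptgds (-0.40 ± 0.47) did not pass. Ptges3 rose most with clones V (0.90 ± 0.12) and H (0.72 ± 0.12), where Ptges did not pass. Ptgds, a prostaglandin D synthase, had a slope of 0.83 ± 0.10 per doubling of the summed epithelial markers (adjusted p = 2.2e-07) and at most 2 counts in a clone N library.

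Transport and breakdown had 8 tested of 9 listed genes, 3 higher and 3 lower in the mean of the clones, against 24.3% and 24.9% of all genes. Slco2a1, the prostaglandin uptake transporter, rose in all 8 co-cultures, from 11.6 ± 1.38 CPM in mono-culture to 19.2 ± 2.85 with clone V and 55.5 ± 9.94 with clone N, a mean clonal log2 fold change of 1.38 ± 0.23 (adjusted p = 1.3e-05). Slco3a1, another organic anion transporter, also rose in all 8, by 1.34 ± 0.18 in the mean (2.4e-07). Abcc4, an exporter of prostaglandins, was at 0.98 ± 0.22 (0.00047) and passed in 6 co-cultures, not with clones K and M. Cbr2, a carbonyl reductase, fell from 9.83 ± 1.38 CPM in mono-culture to 0.391 ± 0.339 with clone V, with a mean clonal change of -2.80 ± 0.22 (1.9e-11). Akr1c14, a hydroxysteroid dehydrogenase of the aldo-keto reductase family, was at -1.85 ± 0.26 (8.7e-07). Both were lower in 7 co-cultures and did not pass with clone K (-0.63 ± 0.34 and -0.81 ± 0.39). Zadh2 fell by 0.29 (SE 0.06, 0.00022), and Ptgr1 (-0.12 ± 0.13) and Ptgr2 (-0.16 ± 0.09), reductases of prostaglandin metabolites, did not pass.

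**Figure D5:**
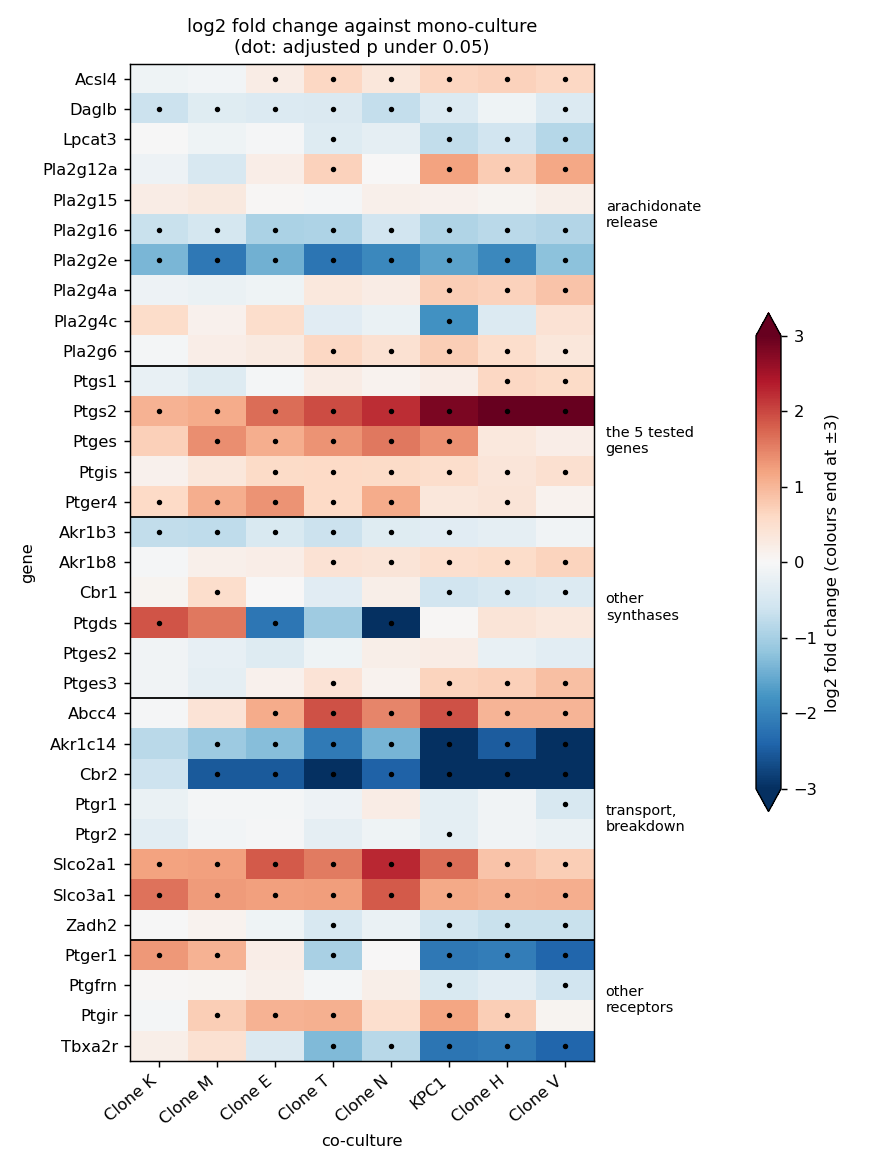
Log2 fold change against mono-culture (colour, ending at 3 in both directions) of the tested genes for arachidonate release, the 5 genes described here, the other synthases, transport and breakdown, and the other receptors (rows) in the 8 co-cultures (columns); dots mark an adjusted p under 0.05. Slco2a1, Slco3a1 and Ptgs2 are higher in every column, and Cbr2 and Akr1c14 lower in all but that of clone K.

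Among 7 other prostanoid receptors 4 were tested, with 1 higher and 1 lower in the mean of the clones, about the shares of all genes (24.3% and 24.9%). Ptgir, the prostacyclin receptor, rose by 0.59 ± 0.16 (adjusted p = 0.0036) and passed with clones E, H, M and T and KPC1. Tbxa2r, the thromboxane receptor, was at -0.92 ± 0.21 (0.00049), from 4.03 ± 0.613 CPM in mono-culture to 0.776 ± 0.524 with clone V. Ptger1, the prostaglandin E2 receptor that signals through calcium, rose with clones K (1.31 ± 0.32, adjusted p = 0.0034) and M (1.03 ± 0.32, 0.017) and fell with clones T (-0.98 ± 0.33, 0.014), H (-2.07 ± 0.35, 1.2e-05) and V (-2.37 ± 0.36, 1.8e-06) and KPC1 (-2.15 ± 0.36, 6.4e-06), with a mean clonal change of -0.41 ± 0.24 (0.15). It differed among the 7 clones (2.1e-10). Ptgfrn, named for its binding to the prostaglandin F2alpha receptor, was at -0.07 ± 0.12.

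The leukotriene and lipoxygenase arm had 4 tested of 9 genes, 1 higher and 1 lower, again about those shares. Alox5ap, which presents arachidonic acid to 5-lipoxygenase, was at 1.5 ± 0.40 (adjusted p = 0.0022), and Ltc4s, leukotriene C4 synthase, at -1.78 ± 0.36 (0.00015), with 0.66 CPM or less on average in any group. Alox5, 5-lipoxygenase itself, did not pass the filter on low counts. Among 14 genes that respond to cyclic AMP, the second messenger of Ptger4, 8 were higher and 0 lower in the mean of the clones, against 24.3% and 24.9% of all genes. By co-culture 5, 5, 2, 3, 9, 6, 5 and 7 of them rose with clones E, H, K, M, N, T and V and KPC1, and 2, 1, 1 and 2 fell with clones H, T and V and KPC1. Of all genes 16.5%, 27.8%, 10.4%, 12.2%, 19.7%, 25%, 29.4% and 30.5% were higher in these co-cultures, so that 2 of 14 with clone K and 5 of 14 with clones H and V are near the share of all genes. The shares of all genes lower were 26.4% with clone H, 24.7% with T, 28.9% with V and 28.5% with KPC1. Areg, a growth factor gene, had the highest change, from 0.155 ± 0.0909 CPM in mono-culture to 13.4 ± 10.9 with clone N and 22.5 ± 12.5 with KPC1, and Pde4b, a cyclic AMP phosphodiesterase, the lowest (-0.30 ± 0.16, adjusted p = 0.11). Among 14 regulators of cyclooxygenase transcription and mRNA decay 9 were higher and 1 lower, against the same 24.3% and 24.9%. Egr1, an immediate early transcription factor, was highest at 1.27 ± 0.29 (0.00057) and Cebpd, a C/EBP factor, lowest at -0.51 ± 0.21 (0.041). The median log2 fold change was 0.48 for the cyclic AMP list and 0.22 for the regulators, against 0.01 for all genes.

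Over the 60 tested genes of these lists, the slope on the summed epithelial markers passed for Ptgds, Ptges2, Lta4h, Sik1, Zfp36l1 and Hif1a, upwards, and for Daglb, downwards. Of all genes 7.33% had a higher and 4.14% a lower slope by the test. The fit had no term for the replicate number here either. Adjusted p-values were close to 0.05 for Hif1a (0.04998), Lta4h (0.044) and Daglb (0.043). It did not pass for Slco2a1, Slco3a1, Abcc4, Cbr2, Akr1c14, Ptger1, Ptgir or Tbxa2r.

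The genes whose 9 group means of log2 CPM were most like those of each member, among those at a mean of at least 2 CPM, are given as a description. For Ptgs2 they were Slc7a6 (r = 0.99), Smad4 (0.99) and Csrnp1 (0.98), for Ptges Zmiz1 (0.98) and Slx1b (0.97), and for Ptgs1 Haus2, Ppp3r1 (0.98 and 0.97) and Vdac3-ps1 (0.97). Those of Ptgis were F2rl1, Msln and Wnt7b (0.97 each), and those of Ptger4 1700017B05Rik, Col6a2 (0.96 each) and Bicc1 (0.95). The points of each comparison share libraries and scaling, and the highest of 11694 candidates are high by selection.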

How the data were processed

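Strand-specific poly(A) libraries (200 ng RNA, 14 PCR cycles) were sequenced in paired 76 bp reads. The authors deposited whole-number counts per gene, unscaled, and RPKM values; the submitters' processing notes name STAR, featureCounts, edgeR and mm10, without versions. Counts divided by length and library total matched RPKM within 1% for 100% of 11926 genes checked. Strand use in counting is not given in the sources used here. Gene lists, members and tests were chosen with earlier results of these data known.

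Counts were fitted in edgeR 4.0.16 (R 4.3.3) with filterByExpr, TMM, 1 coefficient per group over 36 libraries, robust quasi-likelihood tests and Benjamini-Hochberg adjustment over 14439 genes at 0.05. CPM are counts over the TMM-scaled total of the genes tested. SE is the log2 fold change divided by the square root of F. Levels near 3 counts were taken as not detected. Named list genes were all tested synthases, transport and receptor genes, and otherwise the highest and lowest change of the mean clonal comparison. Pla2g4a was added after its values were seen, as were genes named for their slope on the epithelial markers. Up to 3 genes most like each member were named, and 1 is not reported here. Alternatives were DESeq2 1.42.0, RLE, no scaling, no filter, at least 10 counts, the replicate block, limma-trend 3.58.1 on log2(RPKM + 1) or log2(RPKM + 0.1), a threshold of 0.1, single groups and leaving out each library; an epithelial covariate was added after seeing the data. The fits were tested on simulated data. Within groups the smallest chi-square per degree of freedom between libraries was 5.48, so none was counted as a repeat. Library totals (12532122 to 21985538 counts) set the precision.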

Additional observations from a re-analysis of the deposited data

Results flagged for a closer look

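Among 45 sets of 4 libraries, Dixon's ratio marked 2 single libraries, where chance gives about 2.25: Ptgs2 in replicate 4 of clone K (ratio 0.84), at 38.7 CPM below 55.4 to 58.6 CPM, and Ptger4 in replicate 1 of clone N (ratio 0.895), at 22.1 CPM below 25.9 to 26.4 CPM. The co-cultures with the 7 clones differed by the F-test in Ptgs1 (adjusted p = 5.8e-06), Ptgs2 (2.7e-07), Ptges (8.7e-05), Ptgis (0.022) and Ptger4 (1.2e-07). Most genes, 67.5%, also passed this test, and the Ptgis call was lost without replicate 3 or 4 of clone K. KPC1 differed from the mean of the clones in Ptgs2, by 0.74 on the log2 scale, and in Ptger4, by -0.41. Of all genes 22.3% were higher and 18.8% lower in this comparison, and both calls were lost without replicate 1 of KPC1.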

How the results depend on the processing

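The number of the 5 genes that passed stayed within 1.5 times under most alternatives. For clone H, 4 became 2 without scaling and under limma-trend with either pseudocount (2 and 2); for clone K, 2 became 1 without the filter; for clone M, 3 became 5 at a threshold of 0.1, with the replicate block and in the fit of its own 8 libraries. Leaving out 1 library gave 2 to 4 for clone H, 1 to 3 for clone K, 0 to 3 for KPC1 against the mean of the clones, 2 to 4 for clone M, 3 to 4 for KPC1, 4 to 5 in the F-test among clones, 4 throughout for clones E, N and T and the mean of the clones, and 3 throughout for clone V. The pairs that passed numbered 58 to 65 against 63 of the 140 combinations of gene and pair, and 51 with the epithelial covariate. In the main fit 27.5% of the combinations over all genes passed. No member changed direction in a called comparison, and the cause of the lost calls was not tested. Same-numbered libraries did not pair with the mono-culture (correlation over 0.1 in 5 of 32 pairs, from -0.58 to 0.46), while 23 of 32 co-culture libraries correlated best with their own number. The main comparisons between co-cultures leave this likeness out, and the block is given as an alternative only. The block changed no calls against mono-culture beyond Ptgs1 and Ptgis in clone M, and all 5 genes still passed the F-test among clones. Without scaling the median of all genes shifted by -0.03 to -0.10. Depth limits the 3 genes near 0 counts, and 4 libraries per group, not labelled as separate cultures, limit the rest.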
